A study of Mus musculus with 6 samples.

Results

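The cytosolic sulfotransferases transfer a sulfonate group from the donor PAPS (3'-phosphoadenosine 5'-phosphosulfate) to hydroxyl or amino groups of hormones, bile acids and drugs, which makes these compounds more soluble in water and easier to export. Sulfation is one of the main routes by which the liver clears acetaminophen (APAP), and the phenol sulfotransferase Sult1a1 is the family member best known for that reaction. In rodent liver several Sult genes are known to be expressed at different levels in the 2 sexes. The genes described here are 10 of the Sult1, Sult2, Sult3 and Sult5 genes other than Sult1a1. They were listed by name, with earlier results of these data known. Others of these families, Sult2a7 among them, stand outside the 10. The 10 are Sult1b1, Sult1c2, Sult1d1, Sult1e1, Sult2a1, Sult2a2, Sult2a5, Sult2a8, Sult3a1 and Sult5a1, out of 34745 genes listed.

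Bulk RNA-Seq was performed on whole livers of wild-type mice injected i.p. with APAP (300 mg/kg, sampled 12 hours later) and of wild-type mice injected with saline, all fasted for 12 hours beforehand. According to the methods of the study the animals were young adult male C57BL/6J mice. Of 3 APAP samples, 2 had count columns that were analysed (ApAp1 and ApAp3), and these were compared with 3 columns named WT1, WT2 and WT3, which were read as the saline livers since only the remaining columns carry APAP in their names. Nothing in the labels says whether the libraries of a group came from separate animals, so p-values measure the spread between these libraries.

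Sex-linked genes separated the groups. Xist, the RNA that coats the inactive X chromosome, had 0.762 and 1.73 CPM (read counts relative to the TMM-scaled library size) after APAP, compared with 289, 913 and 881 CPM after saline. Ddx3y, which lies on the Y chromosome, had 78.8 and 61.6 CPM with APAP and had at most 1 count in a saline library, and the Y-linked genes Eif2s3y, Uty and Kdm5d were split in the same way. The 5 libraries thus carry male-type expression with APAP and female-type expression in the columns read as saline. The latter conflicts with the male animals of the methods, so it is in doubt whether WT1, WT2 and WT3 are the saline controls of this experiment, and each fold change below rests on that reading. Treatment and sex-linked expression coincide in all of them and cannot be told apart in any fold change below.

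Read depth was similar among libraries, with total counts of 13378445 to 15976339 and TMM factors between 0.783 and 1.27. A floor of 3 counts per library corresponded to 0.176 to 0.269 CPM. Of 13734 genes tested, 485 were lower and 508 were higher with APAP at an adjusted p under 0.05, which became 297 and 1042 with scaling to library size only and 238 and 4703 with scaling to hepatocyte marker genes. The log2 fold change of APAP over saline as fitted by edgeR is written log2FC, and its median over all tested genes was 0.03, while it was 0.42 and 0.93 with these other scalings. The livers expressed the hepatocyte markers, with albumin (Alb) at 51500 and 89700 CPM with APAP against 95000 to 129000 CPM with saline. In whole liver, fewer hepatocytes and less RNA per hepatocyte cannot be told apart.

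Sult2a1, Sult2a2, Sult2a5 and Sult3a1 were nearly absent from the APAP livers, while Sult2a8 and the 4 Sult1 genes among the 10 did not pass the adjusted test. No saline library of male-type expression is present, so a fall from an earlier level was not shown. At an adjusted p under 0.05, 5 of the 10 genes were lower (Sult2a1, Sult2a2, Sult2a5, Sult3a1 and Sult5a1), against 3.53% of all tested genes, and 0 were higher, against 3.7%. Among differences of 1.5-fold or more with an unadjusted P under 0.05, the thresholds named by the study, 7 were lower (11.2% of tested genes) and 1, Sult1e1, was higher (12.3%), 8 genes in either direction (23.5%). edgeR's likelihood ratio test called that gene higher after adjustment as well (1 gene), whereas DESeq2 called 0 higher. The APAP libraries lay below all saline libraries in 7 genes (20.2% of tested genes) and above them in 0 (23.9%, or 44.1% in either direction). All 10 genes passed the filter on low counts, and 3 of them (Sult2a1, Sult2a5 and Sult3a1) had under 10 counts in both APAP libraries and passed through their saline levels. Sult2a2 (8 and 12 counts) and Sult1c2 (156 and 1) reached 10 counts in only 1 APAP library and also passed through their saline levels. Of the 5 genes called lower, only Sult5a1 (12 and 20 counts) reached that minimum in both APAP libraries. The median log2FC of the 10 genes was −3.03, a value that does not depend on the fitted size of the genes near 0 counts.

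**Figure D1:**
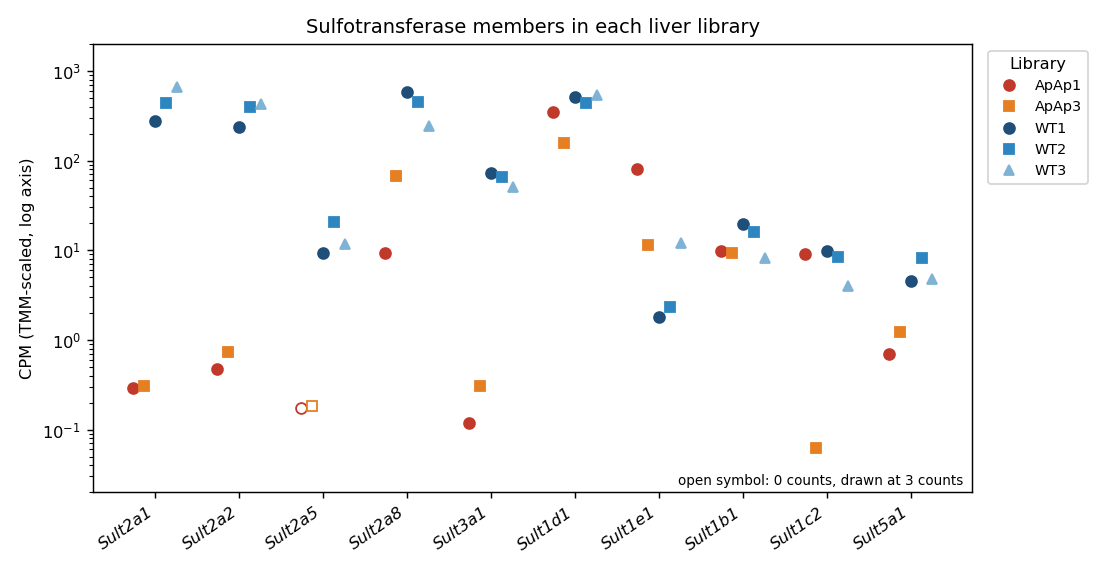
TMM-scaled CPM (log axis) of each sulfotransferase gene in the 2 APAP libraries (red and orange) and the 3 saline libraries (blue), 1 point per library, open where a library had 0 counts and was drawn at 3 counts. Sult2a1, Sult2a2, Sult2a5 and Sult3a1 lie below 1 CPM with APAP, while the 2 APAP libraries are far apart in Sult2a8, Sult1e1 and Sult1c2.

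The Sult2a genes form a cluster on chromosome 7 and are similar in sequence, which bears on how their reads can be assigned. The first 90 coding bases of the 4 Sult2a genes among the 10 are shown because they include stretches identical between genes. A read that lies wholly within such a stretch cannot be assigned by its sequence. The bases come from the GENCODE M21 transcripts (GRCm38), and capitals mark those that differ from Sult2a1 at the same position. The stretches are chr7:13837267-13837356 for Sult2a1 (minus strand), chr7:13733559-13733648 for Sult2a2 (plus strand), chr7:13624045-13624134 for Sult2a5 (plus strand) and chr7:14427830-14427919 for Sult2a8 (minus strand), each within 1 coding exon.
Sult2a1: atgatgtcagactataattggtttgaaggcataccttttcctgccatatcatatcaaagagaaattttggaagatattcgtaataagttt
Sult2a2: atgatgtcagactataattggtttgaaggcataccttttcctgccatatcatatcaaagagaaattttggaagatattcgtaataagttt
Sult2a5: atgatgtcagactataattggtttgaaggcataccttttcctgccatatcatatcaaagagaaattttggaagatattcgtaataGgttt
Sult2a8: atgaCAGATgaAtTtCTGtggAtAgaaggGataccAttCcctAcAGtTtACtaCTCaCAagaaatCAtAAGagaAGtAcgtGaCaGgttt
Sult2a2 differed from Sult2a1 at 0 of the 90 bases, Sult2a5 at 1 and Sult2a8 at 37. Over the aligned coding bases Sult2a1 was 97.9% identical to Sult2a2, 94.9% to Sult2a5 and 69.4% to Sult2a8. Of the 50-base words of the longest coding transcript, 33.2% of those of Sult2a1, 62.1% of those of Sult2a2 and 34.5% of those of Sult2a5 also occur in other genes, and 0% of those of Sult2a8. How the authors' counting treated such reads is not given in the sources used here, so the split of reads among Sult2a1, Sult2a2 and Sult2a5 is uncertain. Sult2a8, Sult1d1, Sult1e1 and Sult1b1 shared no word with another gene, and the share was 0.723% for Sult1c2, 1.78% for Sult5a1 and 6.15% for Sult3a1. No exon of the 10 genes overlaps an exon of another annotated gene.

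Sult2a1 and Sult2a2 encode hydroxysteroid sulfotransferases, which act on steroids such as dehydroepiandrosterone and on bile acids. Sult2a1 (ENSMUSG00000078798, chr7:13796246-13837409, GRCm38) was nearly absent from both APAP livers, at 0.293 and 0.309 CPM from 5 counts in each. Its level was 274, 443 and 655 CPM in WT1, WT2 and WT3. The groups were far apart, and the saline libraries spread over 2.39-fold among themselves. From the pooled counts the saline level was 1580 times the APAP level (95% interval 858 to 3290, exact binomial, counting error only), with a log2FC of −10.53 ± 0.64 (SE, adjusted p = 0.00117).

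Sult2a2 (ENSMUSG00000070811, chr7:13733505-13779636) was at 0.469 and 0.741 CPM after APAP, compared with 236, 393 and 429 CPM with saline. The 8 and 12 counts of the APAP libraries against a total of 14981 in the saline libraries gave a pooled fold of 604 (95% interval 391 to 990.0, exact binomial). Its log2FC was −9.17 ± 0.52 (SE, adjusted p = 0.00101). In WT1, WT2 and WT3 the CPM of Sult2a1 was 1.16, 1.13 and 1.53 times that of Sult2a2, and both genes also share sequence.

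Sult2a5 (ENSMUSG00000078799, chr7:13623967-13670807) had 0 counts in both APAP libraries and was at 9.23, 20.6 and 11.8 CPM in the saline libraries. Set against 3 counts per APAP library, the saline mean was at least 74.9-fold higher. The test of the same fit gave an adjusted p of 0.00489, and its fitted log2FC depends on the prior count and is no measure of size.

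Sult3a1 (ENSMUSG00000069668, chr10:33863935-33879475), which encodes an amine sulfotransferase, was at 0.117 and 0.309 CPM after APAP, compared with 73.0, 65.3 and 50.7 CPM with saline. The APAP libraries held 2 and 5 counts. The pooled fold was 295 (95% interval 143 to 734, exact binomial), and the log2FC was −8.16 ± 0.44 (SE, adjusted p = 0.000868). Sult2a1, Sult2a2, Sult2a5 and Sult3a1 kept an adjusted p under 0.05 in each of the 12 alternatives in which they were tested, every fit without 1 library included.

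Part of the genes of female-biased expression in mouse liver were lower beside these 4. Of 19 such genes tested, none of them a Sult gene, 9 were lower (3.53% of all tested genes) and 0 were higher (3.7%) at an adjusted p under 0.05, and the APAP libraries lay below the saline libraries in 15 (20.2% of all tested genes). A positive log2FC that did not pass the test was found in 3 of them, Abcd2 (0.51), Prom1 (1.64) and Cyp4a10 (0.61), which were named after their values were seen. Cyp3a41a, a cytochrome P450 of female liver, was at 0 and 0.247 CPM after APAP, compared with 148 to 253 CPM with saline. Cux2, a transcription factor of female liver, was at 0.117 and 0.494 CPM after APAP, compared with 5.24 to 19.3 CPM with saline. Of the 16 male-biased genes tested, 12 had a positive log2FC, and 0 passed the adjusted test in either direction. The APAP libraries lay above the saline libraries in 4 of the 16, a share close to the 23.9% of all tested genes. The part of sex in the difference of each sulfotransferase was not tested, since no library of the other sex is present in either group.

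**Figure D2:**
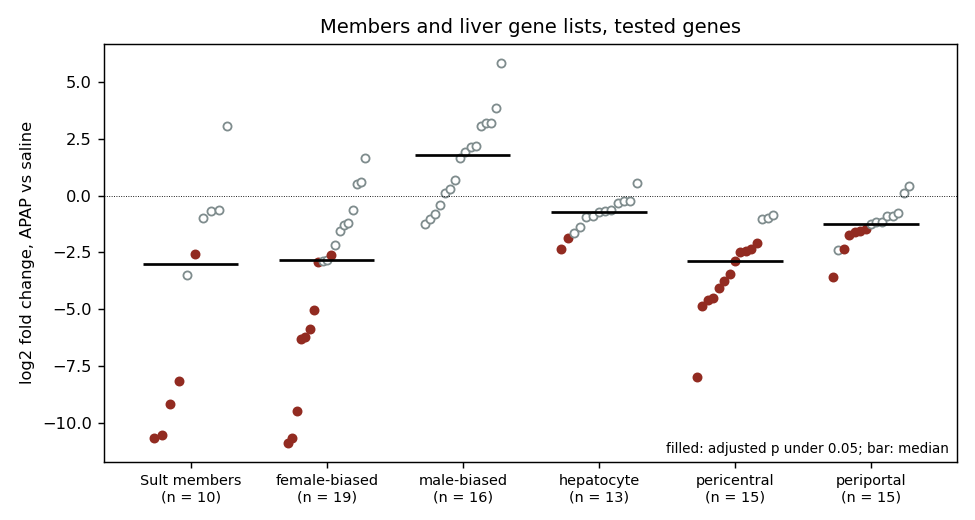
Log2 fold change of each tested gene, APAP against saline, for the 10 sulfotransferase genes and for lists of sex-biased and zonal liver genes (n = tested genes). Filled points have an adjusted p under 0.05 and bars are medians, −3.03 for the sulfotransferases, −2.83 for female-biased, 1.80 for male-biased and −2.88 for pericentral genes.

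Sult2a8 was detected in both APAP livers, at levels that lay far apart. The gene (ENSMUSG00000030378, chr7:14410686-14446769) encodes a liver sulfotransferase that acts on bile acids. It was at 9.21 and 67.4 CPM in ApAp1 and ApAp3 and at 589, 451 and 242 CPM in WT1, WT2 and WT3. Both APAP libraries were below every saline library, yet ApAp3 was 7.32-fold above ApAp1, and 0.801% of tested genes were at least as far apart between these libraries (log2 scale with 0.5 CPM added). The APAP mean of 38.3 ± 41.2 CPM (SD, n = 2) was 8.97% of the saline mean of 427 ± 175 CPM (SD, n = 3).
The log2FC of Sult2a8 was −3.48 ± 0.88 (SE) and its adjusted p 0.0622, which misses the threshold. Over 13 alternatives the adjusted p lay between 0.00151 and 0.164 and the log2FC between −5.54 and −2.66. The gene was called lower in 6 of them, among them DESeq2 (adjusted p = 0.00695) and the fit without ApAp3 (log2FC −5.54, adjusted p = 0.0206). Without ApAp1 the log2FC was −2.66 (adjusted p = 0.124).

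Sult5a1 (ENSMUSG00000000739, chr8:123142847-123158315) was at 0.704 and 1.24 CPM after APAP, compared with 4.57, 8.10 and 4.81 CPM with saline. The libraries did not overlap, at a low level in both groups. The log2FC was −2.58 ± 0.48 (SE, adjusted p = 0.0284). This call was lost without ApAp1 (adjusted p = 0.157), without ApAp3 (0.0673), without WT1 (0.0526) and without WT2 (0.109), with a log2FC between −3.04 and −2.23 in these fits.

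None of the 4 Sult1 genes among the 10 passed the adjusted test. Sult1e1, the estrogen sulfotransferase (ENSMUSG00000029272, chr5:87575969-87591594), was the only one of the 10 genes with a positive log2FC. It was at 79.6 and 11.4 CPM in ApAp1 and ApAp3 and at 1.79, 2.32 and 12.1 CPM in WT1, WT2 and WT3. ApAp1 was thus far above all other libraries, while ApAp3 lay below WT3. The means were 45.5 ± 48.2 CPM (SD, n = 2) with APAP and 5.42 ± 5.83 CPM (SD, n = 3) with saline, an 8.39-fold ratio carried by ApAp1. The log2FC of 3.05 ± 1 (SE) gave an adjusted p of 0.118. Without ApAp1 it was 1.07 (adjusted p = 0.673), and without WT3 4.46 (adjusted p = 0.0491).

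Sult1d1 (ENSMUSG00000029273, chr5:87554645-87569027), which acts on catecholamines and other phenols, had the highest level per exon length of the 10 genes in the APAP livers. It was at 347 and 159 CPM after APAP, compared with 510.0, 439 and 545 CPM with saline. Both APAP libraries were below the saline libraries, and ApAp1 was 2.18-fold above ApAp3. The log2FC of −0.98 ± 0.37 (SE) gave an adjusted p of 0.165, and it was 0.04 with scaling to hepatocyte marker genes. With DESeq2 it was −1.01 (adjusted p = 0.0454).

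Sult1b1 and Sult1c2 overlapped between the groups. Sult1b1 (ENSMUSG00000029269, chr5:87513339-87538195), which sulfates thyroid hormones and phenols, was at 9.85 and 9.20 CPM after APAP, compared with 19.7, 15.8 and 8.28 CPM with saline. Its log2FC was −0.61 ± 0.38 (SE, adjusted p = 0.371) and 0.32 with scaling to hepatocyte marker genes. Sult1c2 (ENSMUSG00000023122, chr17:53829637-53846339) had 156 counts in ApAp1 and 1 count in ApAp3, against 110, 128 and 60 counts in WT1, WT2 and WT3. In CPM, ApAp1 with 9.15 lay within the saline range of 4.01 to 9.85, whereas ApAp3 was at 0.0618, under the floor of 3 counts. Only 0.291% of tested genes were at least as far apart between the 2 APAP libraries. The log2FC of Sult1c2 was −0.68 ± 1.20 (SE, adjusted p = 0.774), 0.29 without ApAp3 and −6.72 without ApAp1 (adjusted p = 0.0416), so its value depends on which APAP library is read.

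The 2 APAP libraries therefore differed from each other in 3 of the 10 genes so far that under 1% of tested genes were at least as far apart (0.291% for Sult1c2, 0.801% for Sult2a8 and 0.823% for Sult1e1). ApAp1 had the higher Sult1e1 and Sult1c2 and the lower Sult2a8. The ratio of Sult2a8 to Sult1e1 CPM was 0.116 in ApAp1 and 5.90 in ApAp3, and 329, 194 and 19.9 in WT1, WT2 and WT3. WT3, the saline library with the most Sult1e1, was also the one with the least Sult2a8. Among the male-biased genes, Serpina1e was at 192 and 11500 CPM in ApAp1 and ApAp3, with saline levels of 595 to 662 CPM. Slco1a1 was at 0 and 45.9 CPM, with saline levels of 17.6 to 97.8 CPM. Cyp2u1 (10.3 and 4.38 CPM), Nudt7 (28.9 and 24.1 CPM) and Bcl6 (30.5 and 27.7 CPM) of the same list were instead higher in ApAp1. Hepatocyte markers summed to 85800 CPM in ApAp1 and 142000 CPM in ApAp3, against 150000 to 207000 CPM with saline. Alb made up most of this sum, with 51500 and 89700 CPM in ApAp1 and ApAp3. Of the same markers, Cps1 (3180 and 1920 CPM) and Tat (1160 and 999 CPM) were higher in ApAp1. Neutrophil markers summed to 129 and 81.1 CPM in these 2 libraries and to between 4.84 and 8.88 CPM with saline. The part of these features in the difference between ApAp1 and ApAp3 was not tested.

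**Figure D3:**
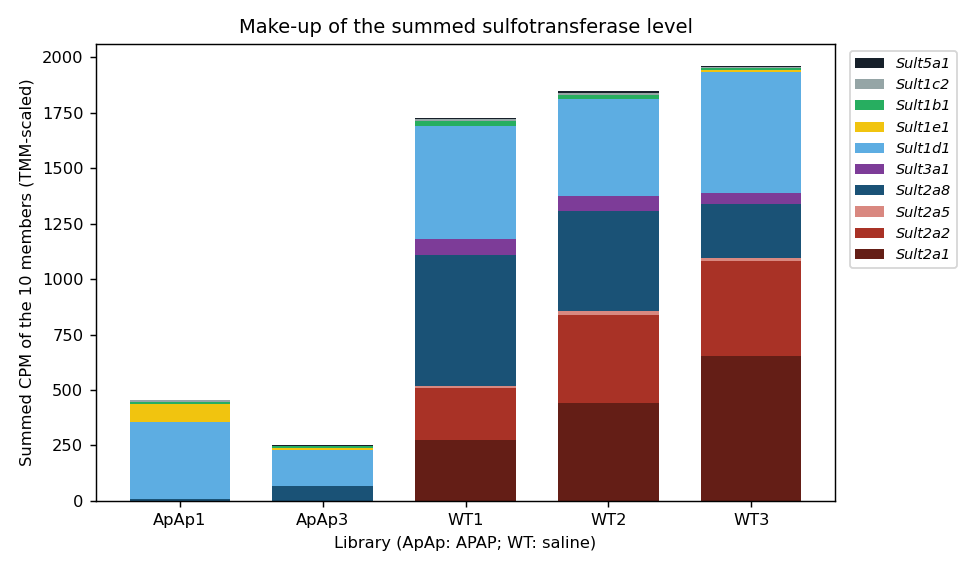
Summed TMM-scaled CPM of the 10 sulfotransferase genes in each library, stacked by gene. The sum was 456 and 250 CPM in the APAP libraries and 1730 to 1960 CPM in the saline libraries, and Sult1d1 (light blue) made up most of it with APAP.

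Summed over the 10 genes, the level was 353 ± 146 CPM (SD, n = 2) with APAP and 1850 ± 117 CPM (SD, n = 3) with saline. The APAP sum was 19.1% of the sum in the columns read as saline, which carry female-type expression. With scaling to hepatocyte marker genes the ratio of the sums was 0.378, against 0.191. The make-up of the sum differed as well. Sult1d1 accounted for 76.0% and 63.7% of the sum in ApAp1 and ApAp3 and for 23.8% to 29.5% in the saline libraries. Sult2a1, Sult2a2, Sult2a5 and Sult3a1 together accounted for 0.193% and 0.544% with APAP and for 34.3%, 49.9% and 58.4% in WT1, WT2 and WT3. The remaining 6 genes summed to 456 and 248 CPM with APAP and to 816 to 1140 CPM with saline. The APAP libraries thus lay below the saline libraries also without the 4 genes nearly absent with APAP. Sult1d1 and Sult2a8 made up most of this remainder in ApAp3 and the saline libraries, and neither passed the adjusted test (adjusted p = 0.165 and 0.0622). In ApAp1, Sult1e1 accounted for 17.4% of the sum of the 10 genes and Sult2a8 for 2.02%. With scaling to hepatocyte marker genes the log2FC of Sult1d1 was 0.04.

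To compare levels between genes, CPM were divided by the summed exon length in kilobases. In saline livers Sult2a2 had 476 ± 138 and Sult2a1 449 ± 187 CPM per kilobase (SD, n = 3), with overlapping libraries. The order of these 2 also rests on the annotated exon length, 741 bases for Sult2a2 and 1020 for Sult2a1. Sult1d1 followed with 203 ± 22.0 and Sult2a8 with 130 ± 53.2 CPM per kilobase, again with overlapping libraries, and then Sult3a1 with 54.5 ± 9.79 and Sult2a5 with 13.3 ± 5.69, each below all libraries of the gene before it. Sult1b1, Sult1e1 and Sult1c2 overlapped at 5.25, 4.37 and 4.04 CPM per kilobase, and Sult5a1 was lowest at 1.32. In APAP livers Sult1d1 led with 103 ± 54.1 CPM per kilobase (SD, n = 2), followed by Sult1e1 with 36.6 ± 38.8 and Sult2a8 with 11.7 ± 12.5, and the last pair overlapped.

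Of 11 other sulfotransferase genes in the table, the 2 tyrosylprotein sulfotransferases of the Golgi included, 6 were tested, 3 were lower and 0 higher at an adjusted p under 0.05 (7.23% of all tested genes were called in either direction). Sult1a1, the phenol sulfotransferase left out of the 10 genes, was at 221 and 204 CPM after APAP, compared with 493, 523 and 673 CPM with saline, a log2FC of −1.40 ± 0.27 (SE, adjusted p = 0.0302). Sult2a7, also in the chromosome 7 cluster, was at 0.293 and 0.618 CPM after APAP, compared with 13.4 to 18.3 CPM with saline (adjusted p = 0.00233). Sult2a3 had 0 counts with APAP and was at least 15.6-fold higher with saline (adjusted p = 0.0130). Sult2a4 (adjusted p = 0.155), Tpst1 (0.321) and Tpst2 (0.827) did not pass the test. Sult1c1, Sult2a6 and Sult6b1 had no count in any library.

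Genes of sulfate and PAPS supply, listed together with linked genes of cysteine and taurine metabolism, were also lower in part. Of 16 tested, 7 were lower (3.53% of all tested genes) and 0 were higher (3.7%) at an adjusted p under 0.05. With scaling to hepatocyte marker genes 10 were called in either direction, against 7. In the reported fit the median log2FC was −0.88. Both APAP libraries lay below all saline libraries in 11 genes (20.2% of all tested genes) and above them in 3 (23.9%). A positive log2FC that did not pass the test was found in 4. These were Papss1, Slc26a2 (0.64), Slc35b3 (0.76) and Impad1 (0.36), the last 3 named after their values were seen. The number of calls fell to 1 without WT2, 2 without ApAp1, 3 without ApAp3 and 4 without WT1. Papss2, 1 of the 2 PAPS synthases, was at 52.4 and 31.1 CPM after APAP, compared with 356, 218 and 127 CPM with saline, a log2FC of −2.48 ± 0.50 (SE, adjusted p = 0.0348). Papss1, the other PAPS synthase, was at 10.1 and 15.3 CPM after APAP, compared with 14.2, 10.3 and 6.74 CPM with saline, with overlapping libraries (log2FC 0.29 ± 0.36, adjusted p = 0.670).
Upstream of sulfate, genes of the path from methionine to cysteine and on to taurine and sulfite were among those called. Cth (cystathionine gamma-lyase) was at 74.3 and 75.2 CPM after APAP, compared with 1200 to 1430 CPM with saline (log2FC −4.12, adjusted p = 0.00183). Csad, which makes the taurine precursor hypotaurine, was at 14.9 and 44.4 CPM after APAP, compared with 403 ± 10.1 CPM (SD, n = 3) with saline (adjusted p = 0.0112). Suox, the sulfite oxidase that forms sulfate, was at 30.6 and 40.4 CPM with APAP against 121 to 171 CPM (adjusted p = 0.0125), and Cbs (cystathionine beta-synthase) at 160.0 and 224 CPM against 591 to 708 CPM (adjusted p = 0.0187). The remaining called genes, named after their values were seen, were Slc26a1, a sulfate transporter, and Ethe1, a persulfide dioxygenase.

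**Figure D4:**
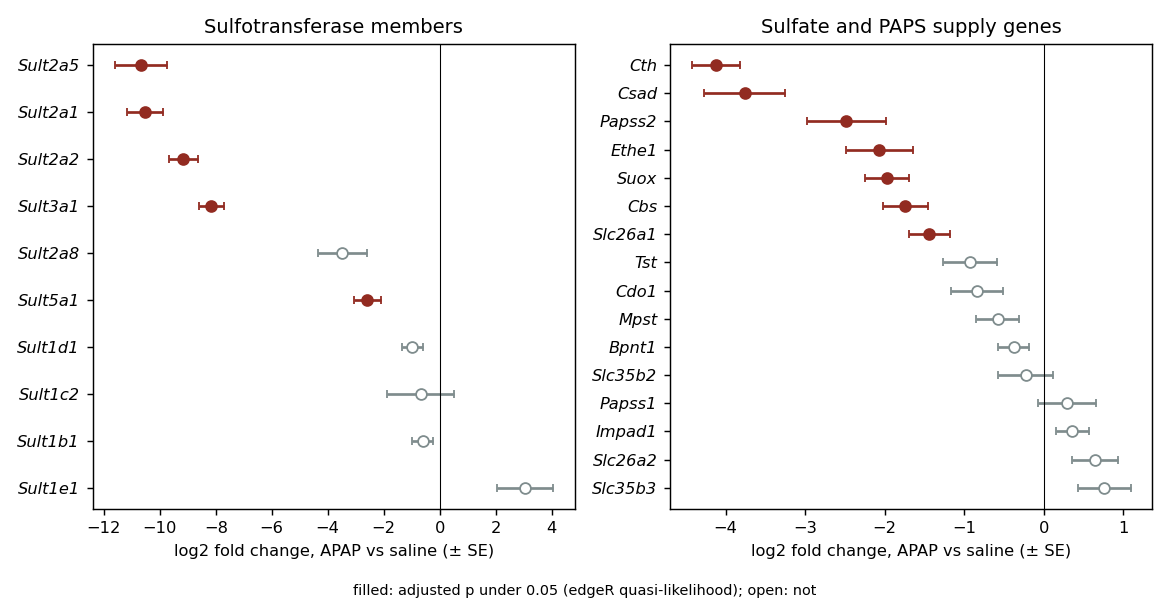
Log2 fold change (± standard error) of the 10 sulfotransferase genes (left) and of 16 tested genes of sulfate and PAPS supply (right), APAP against saline, with filled points for an adjusted p under 0.05. The position of Sult2a5, at 0 counts with APAP, depends on the prior count. Of the sulfotransferases 5 are filled and of the supply genes 7, all of them on the lower side.

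Zonal hepatocyte genes moved beside the sulfotransferases. Of 15 pericentral genes, those of the hepatocytes around the central vein, 12 were lower at an adjusted p under 0.05. Of 15 periportal genes 6 were lower, against 3.53% of all tested genes. The median log2FCs were −2.88 for pericentral and −1.23 for periportal genes. The summed pericentral level was 1520 and 2440 CPM with APAP and 9980 to 15300 CPM with saline. Of the 13 general hepatocyte markers 2 were lower, with a median of −0.70. Scaled to these hepatocyte markers, Sult2a1, Sult2a2, Sult2a5, Sult2a8, Sult3a1 and Sult5a1 were lower (6 genes) and Sult1e1 was higher (log2FC 4.15, adjusted p = 0.00856), while Sult1b1, Sult1c2 and Sult1d1 had positive log2FCs of 0.32, 0.47 and 0.04 that did not pass the test.

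The genes whose libraries were most like those of 4 sulfotransferases were sought by the distance between log2 CPM profiles over the 5 libraries, centred on the saline mean. For Sult2a1 they were Cyp3a41a (distance 1.09), Xist (1.18) and Mup15 (1.84). For Sult2a8 they were Mbl2 (1.22), a mannose-binding lectin, Csad (1.31) and Rgn (1.32), a pericentral hepatocyte gene, and for Sult1d1 Abhd15 (0.27), Fmo2 (0.43) and Hfe2 (0.43). For Sult1e1 they were Acot2 (1.44), a mitochondrial acyl-CoA thioesterase, Elovl7 (1.76) and Orm2 (1.84), an acute phase protein that was at 819 and 105 CPM after APAP, compared with 27 to 59.9 CPM with saline.

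Promoter windows of 250 bases before the RefSeq start site (GRCm38.p6) were found for 8 of the 10 genes, in 10 windows. Those of Sult2a1 and Sult2a2 were not used here. Both windows of Sult2a8 are shown with those of Sult2a5 and Sult1e1, since these 3 genes stand for the 3 patterns described. These are 0 counts with APAP, a lower level that was unequal in the APAP libraries, and a level higher in 1 of them. Capitals mark the motifs searched on both strands, namely AGGTCA as a core element bound by many nuclear receptors, TATAAA as the TATA box, ATCAAT as a part of HNF-type sites and TTCNNNGAA as the STAT motif.
Sult2a5, chr7:13623717-13623966, plus strand: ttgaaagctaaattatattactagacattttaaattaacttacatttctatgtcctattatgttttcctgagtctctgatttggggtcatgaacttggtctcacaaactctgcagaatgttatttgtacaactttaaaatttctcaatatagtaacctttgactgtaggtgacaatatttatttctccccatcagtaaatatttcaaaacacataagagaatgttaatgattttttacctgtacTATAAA
Sult2a8 upstream start, chr7:14446588-14446837, minus strand: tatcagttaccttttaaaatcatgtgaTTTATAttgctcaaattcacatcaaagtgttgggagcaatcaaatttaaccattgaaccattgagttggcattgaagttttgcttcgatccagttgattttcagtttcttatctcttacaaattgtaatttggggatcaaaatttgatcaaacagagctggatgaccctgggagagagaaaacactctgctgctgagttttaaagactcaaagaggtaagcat
Sult2a8 downstream start, chr7:14438552-14438801, minus strand: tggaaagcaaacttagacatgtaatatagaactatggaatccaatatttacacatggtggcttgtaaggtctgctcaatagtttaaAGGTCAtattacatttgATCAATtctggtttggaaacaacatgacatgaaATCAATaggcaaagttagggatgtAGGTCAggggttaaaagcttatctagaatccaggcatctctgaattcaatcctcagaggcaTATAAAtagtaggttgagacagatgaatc
Sult1e1, chr5:87591612-87591861, minus strand: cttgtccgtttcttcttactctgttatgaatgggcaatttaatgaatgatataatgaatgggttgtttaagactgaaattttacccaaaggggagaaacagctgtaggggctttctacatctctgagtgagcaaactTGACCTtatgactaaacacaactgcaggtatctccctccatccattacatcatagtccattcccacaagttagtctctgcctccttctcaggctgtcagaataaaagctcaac
The window of the downstream start of Sult2a8 held 2 AGGTCA and 2 ATCAAT motifs, and its TATAAA began 29 bases before the start site. Sult1e1 held 1 AGGTCA on the opposite strand, 113 bases before its start, and Sult1b1 also held 1. Sult2a5 held only a TATAAA, which began 6 bases before its start site. TTCNNNGAA was present in 1 of the 10 windows, that of Sult3a1, together with 1 ATCAAT, and the start site of that RefSeq window lies outside the deposited gene. Of 32851 windows of this length over all genes, 14% held AGGTCA, 12.4% TATAAA, 6.72% ATCAAT and 7.02% TTCNNNGAA. These matches describe letters in the windows and were not tested against expression, and no motif overlapped another.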

How the data were processed

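Liver RNA was sequenced on an Illumina NovaSeq platform. The authors deposited unnormalized counts, 1 per gene in each library, made with HISAT2, and the genome builds in the submitters' processing notes are GRCm38 and mm10. Program versions, annotation and strand setting are not given in the sources used here. The 5 FPKM columns were not used, so that 1 kind of value served all comparisons. APAP replicate 2 was not analysed here. Coordinates are those of the table, and 8 of the 10 loci are identical in GENCODE M21 (not Sult3a1 and Sult5a1).

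All genes were fitted with edgeR 4.0.16 (R 4.3.3). After filterByExpr with its minimum count of 10 and minimum total of 15, counts were scaled by TMM and compared by the quasi-likelihood test with Benjamini-Hochberg adjustment over 13734 genes. Every adjusted p is from this test unless another is named. Standard errors are the log2FC divided by the square root of F. On simulated counts with 13415 genes tested, 75 of 100 genes changed 4-fold and 3 of 100 changed 2-fold were called, with 14 unchanged genes called. Alternatives were DESeq2 1.42.0, the likelihood ratio test, other scalings and filters, and each library left out. Counts of library pairs within a group were not duplicates of each other, with 43.2 to 92.2 chi-square units for each degree of freedom.

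The 10 genes and the gene lists were chosen with earlier results of these data known. Of each list, up to 4 tested genes with the smallest adjusted p could be named, besides Sult1a1, Papss1, Papss2, Nr1i2, Nr1i3, Rora, the sex-linked genes and Alb. Serpina1e, Slco1a1 and the values behind the difference between the APAP libraries were chosen after values were seen. The values of 1 called gene of the regulator list are not reported here. Profile distances used log2(CPM + 0.5) for genes whose mean reached 10 CPM in a group.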

Additional observations from a re-analysis of the deposited data

How the results depend on the processing

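Sult2a1, Sult2a2, Sult2a5 and Sult3a1 were lower (adjusted p under 0.05) under each of the 12 alternatives in which they were tested. Requiring 10 counts or more in each library removes them, and therefore left 2 genes lower at the adjusted p, 3 lower among differences of 1.5-fold or more with an unadjusted P under 0.05, and 1 of the other sulfotransferases called. The number of genes higher at the adjusted p was 1, Sult1e1, with scaling to hepatocyte marker genes, with the likelihood ratio test and without a filter. Without 1 library in turn, it was 0 to 1, the number higher at the unadjusted P 0 to 1, the other sulfotransferases called 1 to 3 and the sulfate and PAPS supply genes called 1 to 7. With scaling to hepatocyte marker genes the summed level with APAP was 0.378 of that with saline, against 0.191, and the log2FCs of Sult1b1 (0.32), Sult1c2 (0.47) and Sult1d1 (0.04) changed sign. That of Sult1c2 ranged from −6.72 to 0.29 without 1 library. Where an APAP library is left out, the remaining one is assumed to vary like the saline libraries. Of 125 values of single sulfotransferase genes, 105 kept their direction and side of the threshold, 12 were called where the reported fit did not and 4 lost the call. DESeq2 called 1155 genes lower and 938 higher among all genes, against 485 and 508, and leaving out WT2 left 78 and 87. The cause of these changes was not tested. No paired analysis was possible because the saline columns carry no replicate number of the labels. At 2 libraries against 3, a 2-fold difference is mostly not detectable.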

Other observations

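Regulators known to act on sulfotransferase genes and transporters that export sulfated compounds were read in the same fit. Of 17 regulators tested 3 were lower (3.53% of all tested genes) and 0 were higher (3.7%) at an adjusted p under 0.05 (edgeR). Among them were Stat5b, which carries the growth hormone signal (29.4 and 28.7 CPM with APAP, 80.3 to 97.1 CPM with saline, log2FC −1.59, adjusted p = 0.00981) and Cux2 (adjusted p = 0.0263). Nr1i2, which encodes the pregnane X receptor, had a log2FC of −0.52 (adjusted p = 0.208), Nr1i3, which encodes the constitutive androstane receptor, one of −1.01 (adjusted p = 0.206) and Rora one of −0.32 (adjusted p = 0.560). Of 4 tested genes of the steroid sulfatase and export list, 0 passed the adjusted test. By 1.5-fold or more with an unadjusted P under 0.05, 2 were higher (12.3% of all tested genes). These 2 were the exporters Abcg2 (46.5 and 51.9 CPM with APAP, 25.3 to 36.8 CPM with saline, adjusted p = 0.110) and Abcc4 (10.3 and 13.1 CPM against 6.70 to 7.26 CPM, adjusted p = 0.125). In both genes the APAP libraries lay above all saline libraries, as they did in 23.9% of all tested genes.

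Of the remaining marker lists, 8 of 9 tested neutrophil genes and 2 of 6 tested cholangiocyte genes were higher and 0 were lower with APAP. Over all tested genes 3.7% were higher and 3.53% were lower. Among genes of Kupffer cells and monocytes 1 of 10 was higher, among stellate cell genes 1 of 9, and among endothelial (9 tested) and lymphocyte genes (4 tested) 0 passed in either direction.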
